A study of Oryza sativa Japonica Group with 6 samples.

Results

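Aquaporins are membrane channels that let water, and in some members other small uncharged solutes, cross a membrane. In plants the plasma membrane intrinsic proteins (PIPs) act mainly at the cell surface and the tonoplast intrinsic proteins (TIPs) at the vacuole. The nodulin-like intrinsic proteins (NIPs) pass metalloids such as silicic and boric acid, and the small basic proteins (SIPs) were placed at the endoplasmic reticulum in Arabidopsis. In a filling cereal seed TIP3 proteins lie in the membranes of protein storage vacuoles. TIP2 proteins of Arabidopsis and wheat also pass ammonia, and TIP4;1 of Arabidopsis passes urea. The genes described here are those whose symbol or synonym has the form PIP1-, PIP2-, TIP, NIP or SIP with a member number, on the Affymetrix rice array. Such names belonged to 28 genes, and 25 of them had a probe set that mapped to no other gene, of 17905 genes represented on the array. The 25 were 3 PIP1, 7 PIP2, 8 TIP, 5 NIP and 2 SIP genes with 31 probe sets, and each gene was read from its probe set with the highest mean. PIP2-3, NIP1-2 and NIP3-3 had no such probe set and were not analysed here. TIP5;1, whose name is spelled outside that form, was not analysed either.

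Developing seeds of Oryza sativa Japonica Group were profiled on 3 arrays for plants whose containers were given ammonium chloride (400 mg each) around heading, the additional NH4Cl group, and on 3 arrays for untreated control plants. Both groups had received fertilizer at planting and 37 days after germination. Seeds came from 6 plants in all, and tissue was pooled before extraction, so the p-values describe the spread between these samples, which may be technical. The additional NH4Cl samples are labelled 15 days after flowering, no day is given for the controls, and one protocol names seedlings where the tissue label names seeds. The question was how the extra fertilizer alters expression in the seed. In bulk seeds, fewer cells of a type and less RNA per cell cannot be told apart.

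Markers of seed tissue were read first. The endosperm genes GLUA-1, GLUA-2, GLUA-3, GBSS1 and Sbe1 had mean values from 12.64 to 13.21, and the embryo and aleurone genes RAB21, LTP-2, RAB16B and RAB16C from 7.64 to 12.83. The green pericarp genes CAB2R, PETE and RBCS lay between 7.03 and 11.37. The root genes NRAMP5, PHT1-11 and Lsi2 lay at 5.91, 5.44 and 5.66, below the highest of 64 reporter controls at 6.07, and Lsi1, which is NIP2-1, lay above it at 6.64. With additional NH4Cl the difference was positive for 3 of 5 endosperm, 1 of 4 embryo and aleurone and 3 of 3 pericarp markers, none past an adjusted p of 0.05 with limma. In within-group SDs the endosperm markers ran from -0.941 for GBSS1 to 3.03 for GLUA-1 and 2.94 for GLUA-3, whose groups did not overlap. The embryo and aleurone markers ran from -0.833 to 0.424 and the pericarp markers from 1.06 to 1.54. The part of these tissues in the aquaporin values was not tested.

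The values carry the authors' unstated normalization and were read as log2 expression. They hardly vary between arrays: the median SD over 6 arrays was 2.245e-06 for all rice probe sets and 3.462e-05 for the 25 aquaporins. A difference here is therefore no fold change of RNA. It is given in millionths of a log2-scale unit or in log2-scale units, and beside that in within-group SDs of the same probe set. PIP2-5 and TIP2-2 were the 2 members whose SD exceeded 0.001, as that of 2.64% of rice probe sets did.

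Signal ran from 5.27 for NIP3-1 to 12.74 for TIP3-1. TIP3-1, of the protein storage vacuole, had a mean value of 12.74 and its relative TIP3-2 one of 9.13. The water channel PIP2-1 stood at 12.13, PIP1-2 at 10.998 and TIP1-1 at 10.77. PIP2-8, TIP2-1, NIP3-1, NIP4-1 and SIP2-1 lay below the highest reporter control, so their signal need not come from their RNA, and TIP4-2 was just above it at 6.11. Signals of different probe sets depend on the probes as well as on RNA, and give no order of RNA amount. Of the 25 members 18 lay among the 14299 rice probe sets with the highest signal, those above 6.44.

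**Figure D1:**
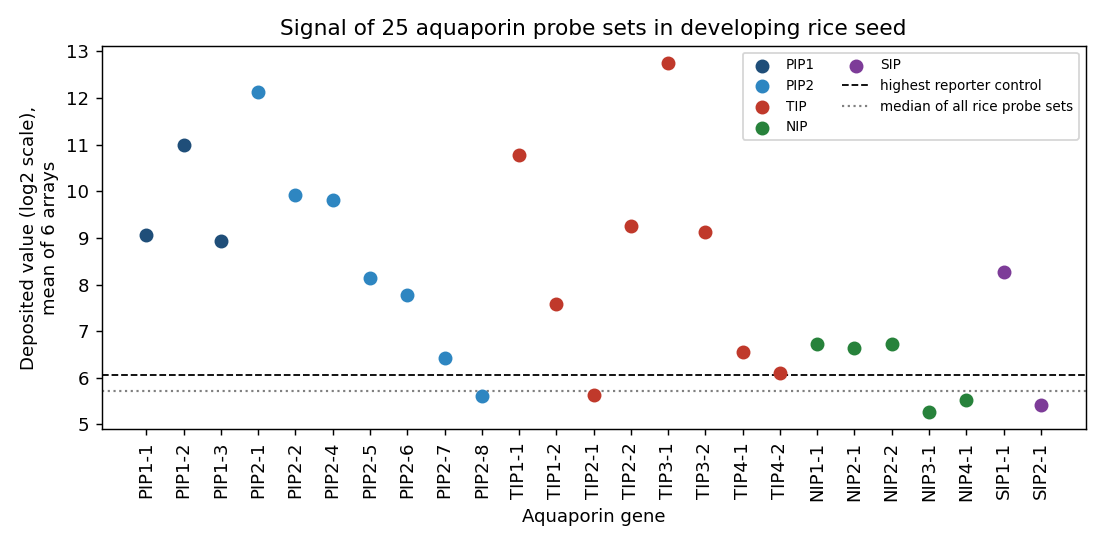
Mean deposited value over 6 arrays (log2 scale, vertical axis) of the probe set chosen for each of 25 aquaporin genes, coloured by subfamily. The dashed line is the highest reporter control at 6.07 and the dotted line the median rice probe set at 5.72, and 5 members lie below both.

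With additional NH4Cl none of the 25 aquaporin genes passed limma's test after Benjamini-Hochberg adjustment over 57194 rice probe sets, where 0.00699% of all were called. The lowest adjusted p with limma was 0.184, for PIP2-5. At an unadjusted limma p under 0.05 stood 3 members with a positive difference (PIP2-1, TIP2-2 and TIP4-1) and 2 with a negative one (PIP2-5 and NIP2-2). These 5 are 20% of the 25 members, against 11.1% of all rice probe sets, made up of 5.09% positive and 5.96% negative. All 5 are among the 18 bright members, where they make 27.8%, against 19% of the 14299 bright probe sets. These shares were not tested, and nothing particular to the family is read from 5 genes. A test with unequal variances also made 0 calls among the 25, with 2 positive and 1 negative at an unadjusted p under 0.05. The groups did not overlap for 3 members above control (PIP2-1, TIP1-1 and TIP4-1) and 2 below (PIP2-5 and NIP2-2), against 8.42% of all rice probe sets above and 8.99% below. That is 20% of the members against 17.4% in either direction, and 27.8% of the 18 bright members against 24.7% of the bright probe sets, so this count is near the background.

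The difference was positive for 16 of 25 aquaporins (64%), against 50.4% of all rice probe sets, and for 12 of the 18 bright ones (66.7%), against 48.4% of the bright probe sets. The median difference was 0.573 within-group SDs for the family and 0.0101 for all rice probe sets. Among plasma membrane members 5 of 10 PIP genes had a positive difference, with a median of 0.137 SDs. Among vacuolar members 6 of 8 TIP genes did, with a median of 1.06 SDs. Without control replicate 3 the PIP median was negative, at -4.07e-06 log2-scale units with 4 of 10 positive, beside 3.338e-07 on all arrays, and the TIP median was 7.347e-06 beside 2.251e-05. The PIP median t was 0.177, and it turned to -0.289 with cross-hybridizing probe sets removed, -0.0934 with trend and robust, and -0.0157 with the mean of a gene's probe sets, so the PIP genes had no settled direction. The TIP median t was 0.957, and in the same 3 fits it was 0.558 (3 of 5 genes positive), 0.356 and 0.957. The PIP median was also negative after quantile normalization, with a median t of -0.888 beside 1.39 for TIP. After centring arrays on their medians both were positive, at 3.07 and 3.64. No test of the difference between PIP and TIP was made, since genes are not replicates.

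**Figure D2:**
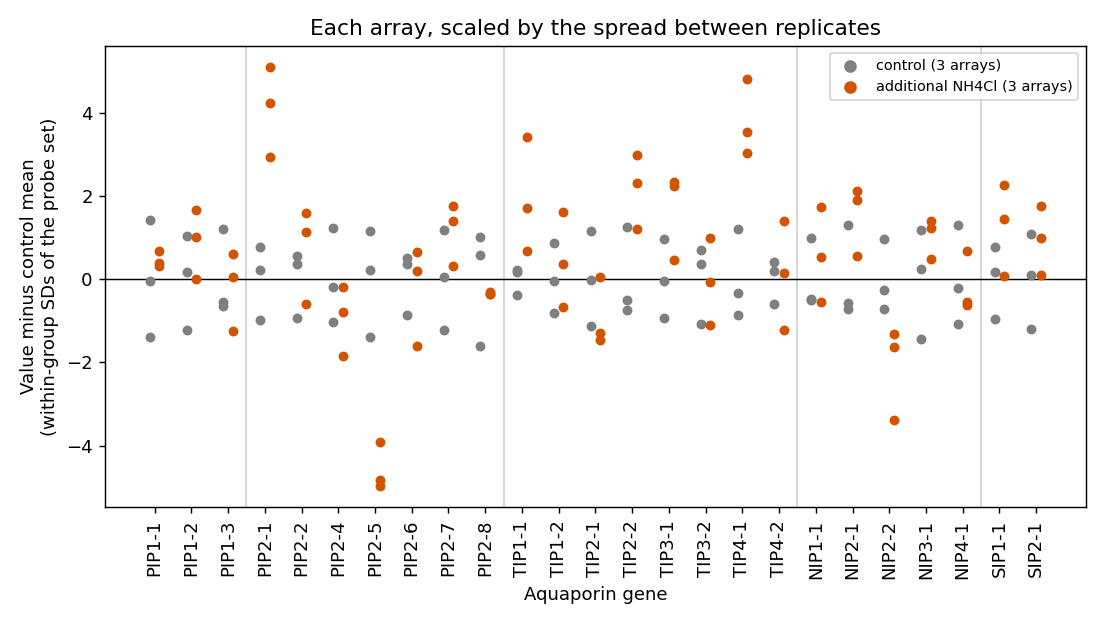
Value of each array minus the control mean (vertical axis, in within-group SDs of the probe set) for 25 aquaporin genes, grey for 3 control and orange for 3 additional NH4Cl arrays. PIP2-5 and NIP2-2 lie wholly below control, and PIP2-1, TIP1-1 and TIP4-1 wholly above it.

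PIP2-5, a plasma membrane water channel, had the difference with the smallest p of the family. Its values were 8.1270, 8.1286 and 8.1273 with additional NH4Cl and 8.1348, 8.1362 and 8.1324 in control. All 3 treated arrays lay below all 3 control arrays. The means were 8.1276 ± 0.000861 and 8.1344 ± 0.00192 (SD, n = 3 each), a difference of -0.0068 log2-scale units (SE 0.00121, -4.57 SDs), with a limma p of 0.00293 that did not pass adjustment (0.184). It is the member whose SD over the arrays was highest, above that of 99.1% of rice probe sets. The difference stayed negative after quantile normalization, at -0.00588 (-3.45 SDs), with a limma p of 0.00988 and an adjusted p of 0.0887. That unadjusted p is higher than the one on the deposited values. The adjusted p is lower in a fit where 4079 of 57194 rice probe sets passed, against 4 as deposited. After median centring the PIP2-5 difference was -0.00667. With each array left out in turn it ran from -0.00783 to -0.00593. PIP2-5 was the single member with a negative difference after median centring. That centring adds about 0.0001225 to every difference, too little to turn the sign of PIP2-5, so its sign there is no check.

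PIP2-5 and PIP2-1 are next to each other in the gene table, and PIP2-4 is 1 gene away from PIP2-5. PIP2-1 had a far smaller difference, of opposite sign. Relative to its control mean, the PIP2-1 values with additional NH4Cl were 0.583, 0.843 and 1.01 millionths, and the controls 0.0433, 0.153 and -0.197 millionths. The groups did not overlap. The difference was 0.813 millionths (SE 0.162, 4.09 SDs), with limma's p of 0.0264 and an adjusted p of 0.365, and quantile normalization left none. That limma p was 0.951 with trend and robust and 0.332 with dim probe sets removed, so it depended on how the fit treats so small a spread. The 2 other PIP2-1 probe sets had positive differences as well, of 3.54 millionths (0.908 SDs) at a mean of 11.93 and of 1837 millionths (1.46 SDs) at a mean of 6.36. PIP2-4 stood at -7.38 millionths (-0.939 SDs), with overlapping groups. A probe set that maps to both PIP2-1 and PIP2-5 was left out by the rule, as was one shared by TIP3-1 and another gene.

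PIP2-2, another water channel of the plasma membrane, lay at -44.97, 118.3 and 83.8 millionths from its control mean with additional NH4Cl, and at -68.8, 27.0 and 41.75 millionths in control. The groups overlapped, with a difference of 52.4 millionths (SE 60.6). This probe set, at a mean of 9.92, can bind related transcripts. A second PIP2-2 probe set without that mark, dimmer at 5.82 and below the highest reporter control, had -34.1 millionths (SE 32.7). Of the remaining PIP2 members, PIP2-7 had a positive difference of 1.16 SDs, negative after quantile normalization. PIP2-6 at -0.255 SDs and PIP2-8 at -0.336 SDs had negative ones, both positive after median centring.

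PIP1 proteins reach the plasma membrane mainly together with PIP2 partners. PIP1-2, the PIP1 member with the highest signal, lay at 0.18, 64.5 and 38.75 millionths from its control mean with additional NH4Cl, and at -47.05, 6.61 and 40.4 millionths in control. The groups overlapped, and the difference of 34.5 millionths (SE 31.6, 0.891 SDs) was negative after quantile normalization. PIP1-1, also known as RWC1, lay at 66.4, 80.7 and 141.2 millionths, and in control at -6.86, 291.8 and -284.9 millionths. The control arrays spread on both sides of all treated ones, and the difference of 96.1 millionths (SE 168.1) was negative without control replicate 3, at -4.636e-05 log2-scale units. PIP1-3, or RWC3, stood at -24.2 millionths (-0.192 SDs).

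TIP4-1 had the difference with the smallest p among the vacuolar channels. Relative to its control mean it lay at 51.65, 32.56 and 37.97 millionths with additional NH4Cl, and at -3.608, 12.9 and -9.289 millionths in control. Every treated array was above every control array. The difference was 40.7 millionths (SE 8.75, 3.80 SDs), with limma's p at 0.00608 and the adjusted p at 0.228. It kept its sign after quantile normalization, at 0.87 SDs. Median centring raises every difference and so could not turn this one. A second TIP4-1 probe set, at a mean of 5.41 and so below the highest reporter control, had a difference of -0.587 millionths (-0.367 SDs).

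TIP1-1 is a water channel of the vacuole membrane. Its values were 10.77098, 10.77117 and 10.77149 with additional NH4Cl, and 10.77088, 10.77089 and 10.77077 in control. All treated arrays lay above all control arrays, and additional NH4Cl replicate 3 lay farthest. The difference was 368.1 millionths (SE 155.1, 1.94 SDs) with a limma adjusted p of 0.480. The second TIP1-1 probe set also separated the groups, with 8.8173, 8.8203 and 8.8349 against 8.8102, 8.8127 and 8.8069. Its difference of 0.0142 log2-scale units (SE 0.00569, 2.04 SDs, limma adjusted p of 0.459) was above that of any chosen probe set, and its SD exceeded that of 99.7% of rice probe sets. It ends in x, the mark of a probe set that can bind several transcripts. After quantile normalization TIP1-1 passed limma's test (adjusted p of 7.37e-10), because its arrays then share 1 value within each group, which leaves no spread. In that fit 4079 of 57194 rice probe sets passed.

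TIP2-2, of the subfamily that passes ammonia in other plants, had values of 9.26632, 9.26772 and 9.26855 with additional NH4Cl, and 9.26419, 9.26639 and 9.26388 in control. Control replicate 2 lay above the lowest treated array, so the groups overlapped. The difference was 0.00271 log2-scale units (SE 0.00102, 2.16 SDs), with a limma p of 0.0437 and an adjusted p of 0.432. It was positive under quantile normalization too, and median centring, which raises every difference, could not have turned it. TIP2-2 was read with an x probe set. TIP2-1 stood at -98.4 millionths (-0.912 SDs) on one probe set and at -3.81 millionths (-0.511 SDs) on another, both below the highest reporter control, and turned positive after median centring.

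**Figure D3:**
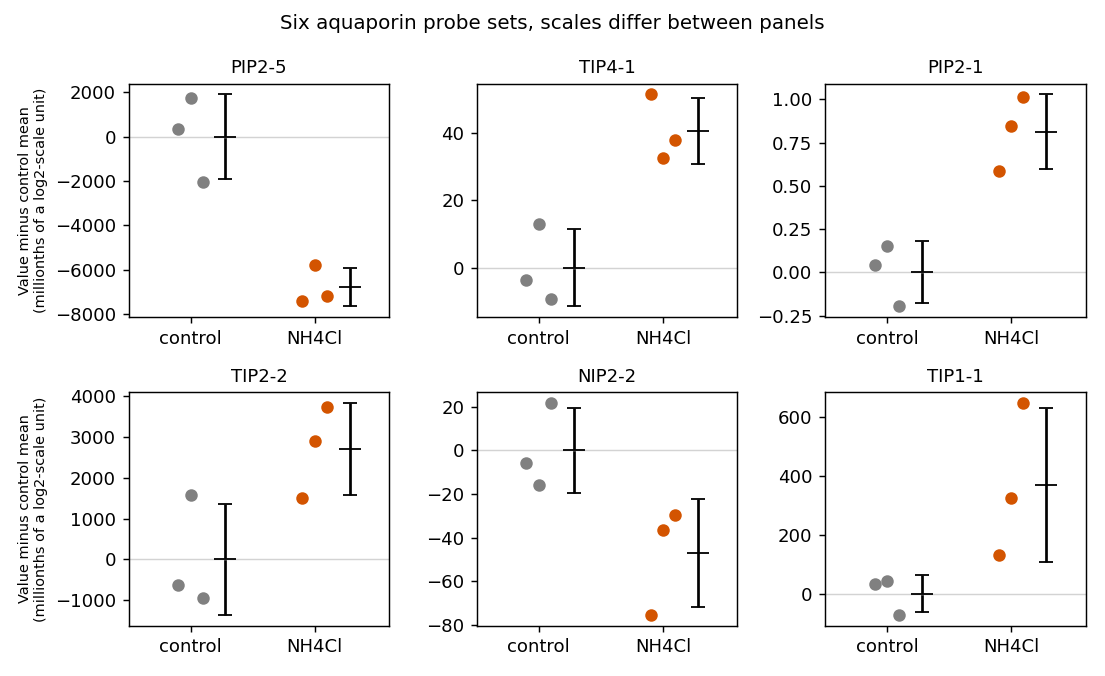
Values of 6 aquaporin probe sets minus the control mean (vertical axes, millionths of a log2-scale unit, with a scale of its own in each panel), 3 arrays per group, with mean and SD in black. The groups overlap for TIP2-2 alone, and the treated arrays lie below control for PIP2-5 and NIP2-2.

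The storage vacuole channel TIP3-1 did not separate the groups. It lay at 0.453, 0.473 and 0.0933 millionths from its control mean with additional NH4Cl, and at 0.193, -0.187 and -0.00667 millionths in control, on overlapping arrays. The difference was 0.34 millionths (SE 0.165, 1.68 SDs). Its mean of 12.74 lies below the highest deposited value of 13.51, and whether the probe set was near an upper limit of signal was not tested. The probe set can also bind related transcripts. TIP3-2 stood at -0.509 millionths (-0.0596 SDs) and was positive after both scalings. TIP1-2 and TIP4-2 stood at 107 and 4.29 millionths, or 0.432 and 0.111 SDs.

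NIP2-2 is the silicon transporter Lsi6, which moves silicic acid out of the xylem in leaves and nodes. It lay at -75.46, -36.27 and -29.54 millionths from its control mean with additional NH4Cl, and at -5.963, -15.72 and 21.68 millionths in control. All treated arrays were below all control arrays. The difference was -47.1 millionths (SE 18.2, -2.12 SDs), with a limma p of 0.0467 and an adjusted p of 0.443. It was 0 after quantile normalization and positive after median centring, at 7.544e-05 log2-scale units, and its probe set can bind several transcripts. NIP2-1, the root silicon channel Lsi1, stood at 9.62 millionths (1.53 SDs) with overlapping groups and was negative after quantile normalization. The silicon efflux carrier Lsi2 was the single related gene of those planned that the gene table held by name, at 0.653 millionths (0.202 SDs). A vacuolar proton pump subunit added after the table was seen, VATP-P1, stood at 1.78 millionths (0.221 SDs).

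NIP1-1 lay at -13.21, 13.02 and 42.32 millionths from its control mean with additional NH4Cl, and at -12.39, -11.55 and 23.94 millionths in control. The groups overlapped, and the difference of 14.04 millionths (SE 20.02) was -9.55e-08 log2-scale units without additional NH4Cl replicate 3. NIP3-1, a boric acid channel also named DTE1, stood at 5.50 millionths (1.04 SDs), and NIP4-1 at -0.257 millionths (-0.166 SDs).

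Both SIP genes had positive differences with overlapping groups. SIP1-1 had values of 8.25985, 8.26016 and 8.26034 with additional NH4Cl, and 8.25988, 8.26001 and 8.25963 in control, a difference of 277.4 millionths (SE 180.0, 1.26 SDs). SIP2-1 lay at 0.027, 0.469 and 0.265 millionths from its control mean and in control at 0.029, 0.288 and -0.317 millionths, a difference of 0.254 millionths (SE 0.217, 0.955 SDs). Both kept a positive sign after quantile normalization, while median centring, which raises every difference, could not have changed it.

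Single arrays took unequal parts in these values. Control replicate 3 held the lowest value for 9 of 25 aquaporins, against 16.5% of all rice probe sets. In the other direction, additional NH4Cl replicate 1 held the lowest value for 7, against 19.9%. Additional NH4Cl replicate 3 held the highest value for 8, against 20.3%, and additional NH4Cl replicate 2 the lowest for 0, against 14.5%. Without additional NH4Cl replicate 3, 5 of 25 members changed sign, among them TIP3-2, TIP4-2 and NIP1-1, and without control replicate 3 PIP1-1 and NIP4-1 did.

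**Figure D4:**
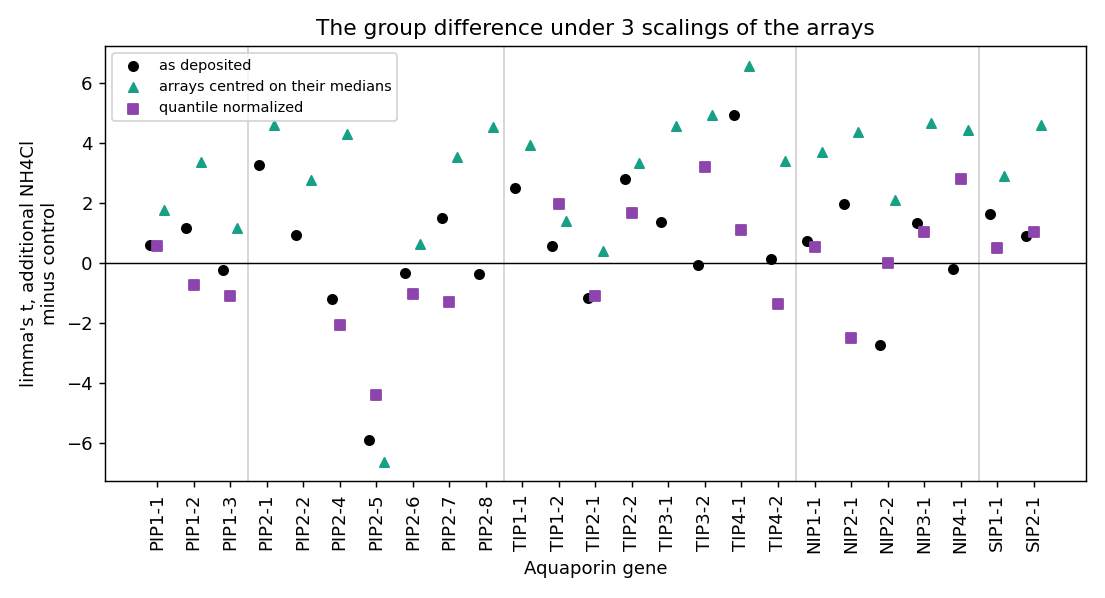
limma's t for additional NH4Cl minus control (vertical axis) of 25 aquaporin genes on the deposited values (black circles), after centring arrays on their medians (green triangles) and after quantile normalization (purple squares). The 5 genes without a square, PIP2-1, PIP2-2, PIP2-8, TIP1-1 and TIP3-1, had no spread left within groups. PIP2-5 lies below 0 under all 3 scalings, of which median centring could not have turned it.

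The scaling of the arrays decided the sign for part of the family. After quantile normalization 11 members were positive, 9 negative and 5 at 0, and 6 had changed sign: PIP1-2, PIP2-7, TIP3-2, TIP4-2, NIP2-1 and NIP4-1. After median centring 24 of 25 were positive, as were 95.6% of all rice probe sets, and 19 passed limma's test where 51354 of 57194 did. Median centring adds about 0.000122 to every difference, beside a median size of 3.45e-05 for the members' own differences. PIP2-5 was negative, and PIP1-1, TIP1-1, TIP1-2, TIP2-2, TIP4-1, NIP1-1, NIP3-1, SIP1-1 and SIP2-1 were positive, under all 3 scalings. For these positive members only quantile normalization could have changed the sign, since median centring raises every difference. The same holds for PIP2-5, whose negative difference is far larger than the amount that centring adds.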

How the data were processed

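The deposited table holds 1 value per probe set and array (57381 probe sets, 6 arrays), read as log2 expression from its range of 4.96 to 13.51. Per the labels, total RNA was labelled as biotinylated cRNA for Affymetrix arrays. The authors' summarization, normalization and log base were not given in the sources used here. After removal of 187 control probe sets, 57194 rice probe sets were fitted without a filter in R 4.3.3. The package limma 3.58.1 was run with its default eBayes and no block, with two-sided p-values, Benjamini-Hochberg adjustment over all of them and a threshold of 0.05. Standard errors are unmoderated. limma was tested on simulated data. Genes were named through the platform annotation and the RefSeq gene table of assembly ASM3414082v1, in which 22436 probe sets had 1 gene, 95 had several and 34663 were unnamed here. The members and lists were chosen with earlier results of these data known. Every member is named. Values on all 6 arrays are given, in each of PIP1, PIP2, TIP, NIP and SIP, for the 2 highest means and for up to 3 members with the smallest p under 0.05. Of the marker names planned, those without a single-gene probe set, among them OLE18 and CAB1R, were not used. The alternatives were a replicate block, eBayes with trend and robust, quantile normalization, median centring, removal of dim or of cross-hybridizing probe sets, the mean of a gene's probe sets, unequal variances and each array left out. No 2 arrays shared more than 41 values. The number of arrays limits the precision. No sequences were used here.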

Additional observations from a re-analysis of the deposited data

How the results depend on the processing

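The directions of PIP2-5, TIP4-1, TIP1-1 and SIP1-1 held under every alternative run. Those of TIP2-2, NIP3-1 and SIP2-1 held in every fit that included these genes. Median centring could not have turned any of these directions. Median centring, quantile normalization and single arrays changed others. With 3 arrays per group and a table that hardly varies, small differences could not be settled. As deposited, 0 of 25 aquaporins were called, and this was 0 in each fit except after quantile normalization (1, TIP1-1, whose spread within groups is then 0) and median centring (19, by construction). Of all 57194 rice probe sets, 4079 were called after quantile normalization and 51354 after median centring, against 4 as deposited. The fit with the replicate block called 0, and 1 member was positive at an unadjusted p under 0.05 in place of 3. With trend and robust 2 were, as with dim probe sets removed, and PIP2-1 was not among them. Same-numbered arrays had correlations of -0.0616, 0.0449 and -0.0775 between their deviations, and differently numbered ones from -0.0502 to 0.103. The numbers thus gave no sign of pairing, though these values cannot exclude shared handling.

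After quantile normalization 1 PIP gene was positive in place of 5, 1 member each was negative at an unadjusted p under 0.05 and non-overlapping below control, and the median TIP difference was 0.0001634. Median centring gave 18 positive and 1 negative at an unadjusted p under 0.05, non-overlapping groups for 16 above and 1 below control, and positive differences for 9 PIP and 5 NIP genes. Its median differences were 0.0001268 for all members, 0.0001229 for PIP, 0.000145 for TIP, 0.000128 for NIP and 0.0002614 for SIP, with median t of 3.52, 3.07, 3.64, 4.36 and 3.73. With dim probe sets removed 1 SIP gene was left, with a median of 0.0002774. With cross-hybridizing probe sets removed 3 of 5 TIP genes were positive, and 1 member each was negative at an unadjusted p under 0.05 and non-overlapping below control. Unequal variances gave 1 negative at an unadjusted p under 0.05. The shares of all rice probe sets at that p or without overlap were not taken in these alternative fits. Nothing about the family is read from these counts.

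Signs turned after quantile normalization for NIP2-1 (-0.0002133), NIP4-1 (1.791e-05), PIP1-2 (-0.0001169), PIP2-7 (-0.0001879), TIP3-2 (0.00124) and TIP4-2 (-4.223e-05), for which the cause was not tested. They turned after median centring, which adds to every difference, for NIP2-2 (7.544e-05), NIP4-1 (0.0001223), PIP1-3 (9.835e-05), PIP2-4 (0.0001152), PIP2-6 (7.424e-05), PIP2-8 (0.0001224), TIP2-1 (2.413e-05) and TIP3-2 (0.000122). PIP2-2 turned to -3.407e-05 on its other probe set. With each array left out, median differences ran from 7.535e-07 to 8.269e-06 for all members, -4.07e-06 to 2.628e-05 for PIP (highest without additional NH4Cl replicate 1), 7.347e-06 to 2.979e-05 for TIP, 3.683e-08 to 7.832e-06 for NIP (lowest without additional NH4Cl replicate 3) and 8.356e-05 to 0.0002047 for SIP. In those fits members at an unadjusted p under 0.05 ranged from 1 to 4 positive and from 1 to 1 negative, and non-overlapping ones from 3 to 8 above control. Groups separate more readily with 1 array fewer, and the matching shares of all rice probe sets were not taken. The shares given for all 6 arrays do not apply to these counts, and nothing about the family is read from them. Differences that turned ran from -1.101e-06 to 7.535e-07 for NIP4-1, -9.55e-08 to 2.767e-05 for NIP1-1, -4.636e-05 to 0.000242 for PIP1-1, -7.469e-05 to 5.189e-05 for PIP1-3, -0.0001341 to 7.965e-05 for PIP2-6, -4.955e-07 to 7.6e-08 for PIP2-8, -3.859e-05 to 0.0002439 for TIP1-2, -5.103e-06 to 3.963e-06 for TIP3-2 and -2.06e-05 to 2.988e-05 for TIP4-2.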
